A study of Rattus norvegicus with 26 samples.

Results

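The subunit genes of the mitochondrial respiratory chain and ATP synthase were followed across 4 kinds of rat brain cell culture. The genes were all those whose annotated symbol starts with Ndufa, Ndufb, Ndufc, Ndufs, Ndufv, Uqcr, Atp5 or Cox4 to Cox8, or is Sdha, Sdhb, Sdhc or Sdhd, leaving out the Ndufaf assembly factors. This gave 80 of the 14217 genes measured by a probe set with a single symbol, each represented by its brightest probe set on average. They comprised 34 genes of complex I, 4 of complex II, 7 of complex III, 17 of complex IV, 15 of complex V and 3 associated genes. Of the 17 complex IV genes, 10 encode broadly used subunits and 7 encode isoforms restricted to certain tissues or conditions (Cox4i2, Cox6a2, Cox6b2, Cox7a1, Cox7b2, Cox8b and Ndufa4l2). Complex IV here includes Ndufa4, first named as a complex I subunit, and its relative Ndufa4l2.

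The cells were grown from the cerebral cortex of P1 rat pups as primary cultures of neurons, astrocytes, oligodendrocytes or microglia. Each culture had 4 replicate arrays, called N1 to N4, A1 to A4, O1 to O4 and M1 to M4. The labels give no strain, treatment or time in culture. They do not say whether the 4 replicates of a culture came from separate litters or dishes, so p-values measure only the spread between these arrays. A further 10 arrays carried RNA mixtures, 2 of each of 5 proportions: NA1, NA2 and NA3 of neuronal and astrocytic RNA, NAO with oligodendrocytic RNA added and NAOM with microglial RNA as well. They were made from N1, A1, O2 and M2 (replicate 1) or from N2, A4, O4 and M3 (replicate 2). Levels are the deposited log2 values, in which a difference of 1 is a 2-fold change, and they compare 1 gene between arrays, not 1 gene with another. In such bulk samples fewer cells of a type and less RNA per cell cannot be told apart.

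The electron transport chain passes electrons from NADH at complex I, or from succinate at complex II, through ubiquinone and complex III to cytochrome c and on to oxygen at complex IV. Complexes I, III and IV pump protons across the inner mitochondrial membrane, and ATP synthase (complex V) uses the return flow to make ATP. Complex II, succinate dehydrogenase, pumps no protons and is also an enzyme of the citric acid cycle. Neurons are known to rely on oxidative phosphorylation, while cultured astrocytes are known for a high rate of glycolysis. Most subunits are encoded in the nucleus, and their genes are known targets of the nuclear respiratory factors NRF1 and GABP (an ETS-family factor, also called NRF2) and of YY1.

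Promoters of 72 of the 80 genes were found in a RefSeq table (build GRCr8), each from 250 bases before to 50 bases after the annotated start. They were searched on both strands for GCGCA and GCGC with 1 base of any kind between them (an NRF1 motif), CCGGAAG (an ETS motif) and AAGATGGC (a YY1 motif). At least 1 of the 3 was present in 40 of the 72 promoters (55.6%), against 25.2% of the promoters of 10918 measured genes. The YY1 letters were in 16 (22.2%, against 4.9%), the ETS letters in 20 (27.8%, against 15.3%) and the NRF1 letters in 13 (18.1%, against 8.68%). NRF1 letters were found in 6 of 32 complex I, 1 of 4 complex II, 1 of 6 complex III, 0 of 14 complex IV and 5 of 14 complex V promoters. These numbers are small, and a difference between complexes was not tested. Matches describe the letters in this window and say nothing of binding. The 4 promoters below belong to genes on which the results turn: an ATP synthase gene and a complex IV gene that were higher in neurons, a complex II gene that was not, and the isoform gene Cox6a2. Capitals mark a match on either strand. The Atp5mc3 and Sdha capitals are NRF1 matches, the first 2 runs in Cox8a are ETS matches and the third is a YY1 match, and Cox6a2 had no match.
Atp5mc3, chr3:79220615-79220914, minus strand: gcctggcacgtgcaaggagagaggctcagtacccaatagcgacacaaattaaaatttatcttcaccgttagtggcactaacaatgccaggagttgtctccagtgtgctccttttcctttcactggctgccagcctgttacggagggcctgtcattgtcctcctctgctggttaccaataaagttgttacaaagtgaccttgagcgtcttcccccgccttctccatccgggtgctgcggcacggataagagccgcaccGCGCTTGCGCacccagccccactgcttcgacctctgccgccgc
Cox8a, chr1:213833574-213833873, minus strand: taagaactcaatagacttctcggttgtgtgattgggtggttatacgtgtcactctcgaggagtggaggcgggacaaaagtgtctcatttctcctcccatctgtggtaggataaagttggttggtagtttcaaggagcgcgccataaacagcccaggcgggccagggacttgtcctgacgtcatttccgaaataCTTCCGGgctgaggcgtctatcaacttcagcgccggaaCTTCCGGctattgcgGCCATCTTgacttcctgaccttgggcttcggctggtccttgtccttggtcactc
Sdha, chr1:30764303-30764602, plus strand: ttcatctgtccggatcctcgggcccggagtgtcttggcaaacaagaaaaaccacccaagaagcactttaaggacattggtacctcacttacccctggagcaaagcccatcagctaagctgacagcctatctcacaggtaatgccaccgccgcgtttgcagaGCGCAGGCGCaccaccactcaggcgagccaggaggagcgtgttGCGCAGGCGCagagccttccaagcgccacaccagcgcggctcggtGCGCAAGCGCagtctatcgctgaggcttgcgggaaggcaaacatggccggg
Cox6a2, chr1:192219667-192219966, minus strand: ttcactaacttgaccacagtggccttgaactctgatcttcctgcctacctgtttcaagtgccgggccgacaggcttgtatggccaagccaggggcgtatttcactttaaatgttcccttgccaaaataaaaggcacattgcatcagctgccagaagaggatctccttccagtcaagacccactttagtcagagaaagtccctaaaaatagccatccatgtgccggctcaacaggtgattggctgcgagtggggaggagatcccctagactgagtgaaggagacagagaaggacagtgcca

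The culture labels were checked against marker genes, summarised as a mean level on each array. The neuron list (10 genes) lay between 10.86 and 11.07 on neuronal arrays and between 5.18 and 6.83 on the other 12. The astrocyte list (7 of 8 genes measured) was highest on astrocytic arrays (9.70 to 10.78), but lay at 6.95, 7.78, 9.14 and 8.86 on N1 to N4. The oligodendrocyte list read 9.58 to 11.10 on oligodendrocytic arrays and 7.25 to 8.78 on microglial arrays, and the microglia list 9.79 to 10.64 on microglial and 7.61 to 8.55 on oligodendrocytic arrays. The mean of the fibroblast markers was higher on A4 (9.23) than on A1 to A3 (6.57 to 6.66). It was lower on the neuronal (4.20 to 4.98), oligodendrocytic (3.94 to 5.80) and microglial arrays (3.90 to 4.46). All 4 astrocytic arrays were thus above the rest for these markers. The mean of the endothelial and pericyte markers lay between 3.82 and 4.55 on all culture arrays. Single genes could differ from the mean of their list. By the limma test described below, 1 of the 10 neuron markers was higher and 8 lower in astrocytic cultures (largest positive difference 3.43). In oligodendrocytic cultures 2 were higher and 7 lower. Among 6 fibroblast markers, 4 were higher and 0 lower in astrocytic cultures (median difference 3.49). Of 5 endothelial and pericyte markers measured, 1 was higher and 0 lower in astrocytic cultures (largest difference 2.0). The description of M4 reads as a mixture although its title and cell type are microglial, and on M4 the neuron list read 5.18 and the microglia list 10.64. The array medians lay between 5.25 and 5.31. The total neuronal counts are also given without N3 and N4. Some other total counts and some named results are given without N3 and N4, A4 or M4. The counts by complex, by pair of cultures and of genes with no overlap of arrays are given with all arrays only. Any part of these other cell types in the results was not tested.

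Neuronal cultures had higher levels of respiratory chain genes across complexes I, III, IV and V, while no complex II gene passed the test over all 4 neuronal arrays. Set against the mean of the other 3 cultures, 57 of the 80 genes were higher in neurons and 0 were lower (limma, adjusted p under 0.05 by Benjamini-Hochberg over all probe sets tested). At an unadjusted p under 0.05, 59 were higher and 1 was lower, with no share of all probe sets given for that threshold. At the adjusted threshold the same test called 22.5% of all 31042 probe sets higher in neurons and 26.4% lower. Among 1801 genes with a mean culture level above 9, a bound chosen after the values were seen because most respiratory chain genes are bright, 29.8% were higher and 44.2% lower. The median difference was 0.41 over the 80 genes and -0.07 over all probe sets. Most of the differences were under 2-fold: 4 genes (Cox6a2, Ndufa8, Atp5mk and Uqcr11) were higher by at least 1 on the log2 scale, where 11.8% of all probe sets were. Neuronal cultures had the highest mean of the 4 for 63 of the 80 genes (78.8%, against 25.5% of all genes), and astrocytic cultures had the lowest for 48 (60.0%, against 21.5%).

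**Figure D1:**
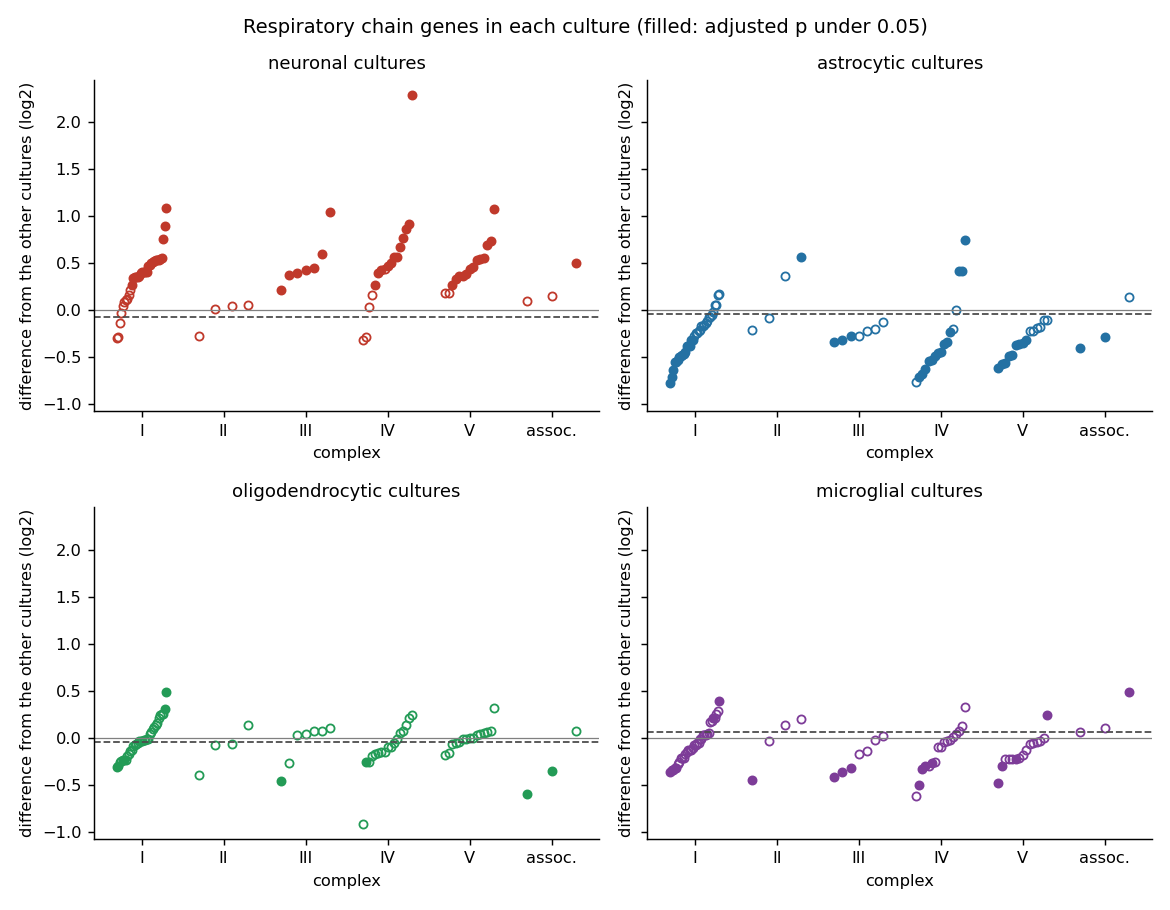
Log2 difference of each respiratory chain gene in 1 culture from the mean of the other 3 (vertical axis), by complex, with 1 panel per culture and 1 point per gene. Filled points had a limma adjusted p under 0.05, and the dashed line is the median of all probe sets. In the neuronal panel 57 of 80 points are filled and above 0, with no filled point in complex II, and in the astrocytic panel 41 are filled and below 0.

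By complex, 24 of 34 complex I genes were higher in neurons (median difference 0.40), as were 7 of 7 complex III genes (0.43), 12 of 17 complex IV genes (0.47) and 13 of 15 complex V genes (0.44), against 0 of 4 complex II genes (0.03). Among the 10 broadly used complex IV subunits, 9 were higher (median 0.53), and the tenth, Cox5a, differed by 0.44 ± 0.19 (SE, adjusted p = 0.0638). For Cox5a a brighter probe set that also carries another symbol was left out. Within complex I, 4 of the 6 nuclear core subunits measured, those shared with the bacterial enzyme, were higher, and so were 20 of 28 supernumerary subunits. Averaged over the 70 broadly used subunits, the level on N1 to N4 was 10.79, 10.74, 11.23 and 11.16. It was 10.49, 10.42, 10.47 and 10.43 on A1 to A4, between 10.65 and 10.67 on the oligodendrocytic arrays and between 10.49 and 10.69 on the microglial arrays. Each neuronal array was above each of the other 12 in this average, by a margin that was narrow for N1 and N2. In complex I alone the arrays overlapped, with N1 and N2 at 10.26 and 10.20, M1 at 10.24 and O2 and M2 at 10.20. Neuronal arrays also overlapped the others in complex II, but not in complexes III, IV and V.

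**Figure D2:**
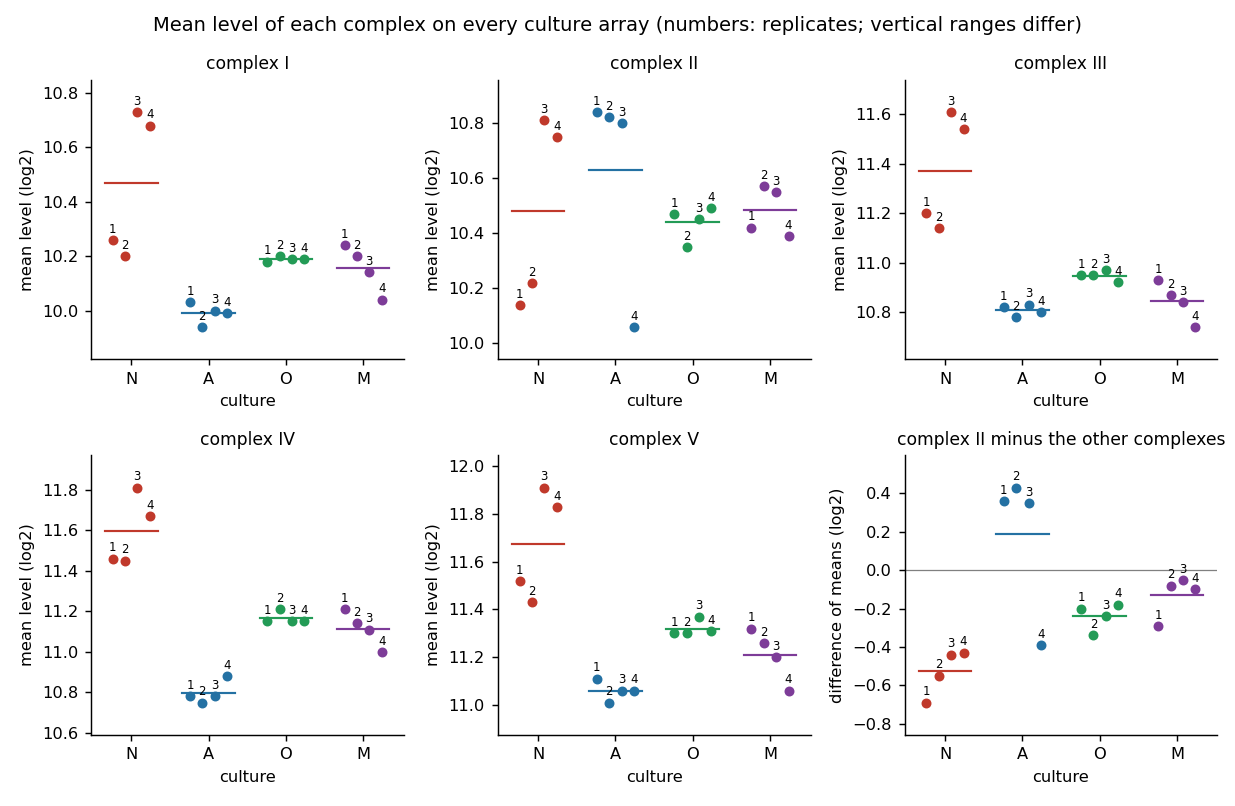
Mean log2 level of the broadly used subunits of each complex on the 16 culture arrays (N neuronal, A astrocytic, O oligodendrocytic, M microglial), with replicate numbers beside the points, lines at the culture means and a vertical range that differs between panels. The last panel gives the complex II mean minus the mean of the other complexes: A1 to A3 lie at 0.35 to 0.43, A4 at -0.39 and the neuronal arrays at -0.69 to -0.43.

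In complex I, Ndufa8, a supernumerary subunit on the intermembrane space side, read 11.02, 10.92, 11.56 and 11.49 on N1 to N4. It read 9.98, 9.80, 9.89 and 9.73 on A1 to A4, 10.24, 10.23, 10.31 and 10.37 on O1 to O4, and 10.23, 10.27, 10.42 and 10.41 on M1 to M4. All 4 neuronal arrays were above the other 12 and all 4 astrocytic arrays below them. The neuronal level was 2.13-fold the mean of the others (difference 1.09 ± 0.11, SE, adjusted p = 3.6e-07), and the astrocytic difference was -0.77 ± 0.11 (adjusted p = 2.68e-05). Ndufs1, the largest core subunit, which carries iron-sulfur clusters, read 9.77, 9.75, 10.52 and 10.46 on N1 to N4, against 9.02 to 9.52 on the other 12 arrays. Its neuronal arrays did not overlap the others (0.76 ± 0.14, adjusted p = 0.000233). Ndufv3, a small subunit of the NADH-binding module, differed by 0.90 ± 0.10 (adjusted p = 1.18e-06), but a second probe set of Ndufv3 went the other way (-1.08, adjusted p = 4.69e-08), so its direction depends on the probe set.

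The core subunits Ndufs7 and Ndufs8, which carry the iron-sulfur clusters nearest to ubiquinone, were not called higher. Ndufs7 read 9.37, 9.30, 10.06 and 10.04 on N1 to N4, against 9.66 to 10.25 on the other 12 arrays. N1 and N2 lay below all of those arrays while N3 and N4 lay among them, and the difference was -0.28 ± 0.14 (adjusted p = 0.121). Ndufb7, a supernumerary subunit of the membrane arm, had the same form, with 9.57, 9.26, 10.46 and 10.47 on the neuronal arrays and 9.84 to 10.57 on the other 12 (-0.29 ± 0.19, adjusted p = 0.219). With N1 and N2 as the only neuronal arrays, 5 of the 80 genes were lower in neurons, namely Ndufb7, Ndufs7, Ndufa11, Ndufa13 and Sdhc, where 21.6% of all probe sets and 41.5% of the brighter genes were.

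In complex III, Uqcr11, a small subunit, read 11.63, 11.55, 11.80 and 11.61 on N1 to N4, against 10.43 to 10.75 on the other 12 arrays. The neuronal arrays agreed closely and stood well apart from the rest, and the difference was 1.05 ± 0.07 (2.07-fold, adjusted p = 3.87e-09). The other 6 genes of the complex were higher by 0.22 to 0.60, among them the core protein gene Uqcrc2 (0.60 ± 0.11, adjusted p = 0.000332) and, smallest, the Rieske iron-sulfur protein gene Uqcrfs1 (0.22 ± 0.09, adjusted p = 0.0454).

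In ATP synthase, Atp5mk (also known as DAPIT or Usmg5), a small membrane subunit linked to dimers of the enzyme, read 12.47, 12.47, 12.85 and 12.59 on N1 to N4, against 11.14 to 11.90 on the other 12 arrays. No other array reached the neuronal range, and the difference was 1.08 ± 0.11 (2.12-fold, adjusted p = 4.51e-07). The catalytic subunit gene Atp5f1b was higher by 0.74 ± 0.09 (adjusted p = 5.38e-06). The subunit c gene Atp5mc3, whose product forms the rotating ring, read 12.57, 12.36, 12.95 and 12.85 on the neuronal arrays and 11.77 to 12.20 on the others (0.69 ± 0.10, adjusted p = 3.34e-05). The stalk subunit genes that did not pass the test were Atp5pb (0.18 ± 0.08, adjusted p = 0.0844) and Atp5pd (0.18 ± 0.10, adjusted p = 0.135).

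The inhibitor of ATP synthase, Atp5if1, which blocks ATP hydrolysis by the enzyme, had its own pattern. It read 10.61, 10.59, 10.86 and 10.76 on N1 to N4 and 10.66, 10.68, 10.68 and 10.79 on M1 to M4, against 9.78, 10.14, 10.08 and 10.12 on A1 to A4 and 9.69, 9.81, 10.24 and 9.82 on O1 to O4. Neuronal and microglial arrays overlapped each other, and every one of them was above all astrocytic and oligodendrocytic arrays. It was called higher in neurons (0.50 ± 0.10, adjusted p = 0.000511) and in microglia (0.49 ± 0.10, adjusted p = 0.000796), and lower in oligodendrocytic (-0.59 ± 0.10, adjusted p = 0.00029) and astrocytic cultures (-0.40 ± 0.10, adjusted p = 0.0039), each against the mean of the other 3. None of the 4 calls was made with its dimmest probe set, which lay below the array median on every culture array (0.10 in neurons, adjusted p = 0.414, -0.11 in astrocytic, adjusted p = 0.38, -0.19 in oligodendrocytic, adjusted p = 0.143, and 0.20 in microglial cultures, adjusted p = 0.0907).

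Several complex IV subunits exist as alternative genes. For subunit 6A, the gene used in most tissues, Cox6a1, read 11.77, 11.94, 12.09 and 12.05 on N1 to N4, against 11.04 to 11.14 on the astrocytic, 11.22 to 11.42 on the oligodendrocytic and 11.24 to 11.58 on the microglial arrays (0.67 ± 0.08, adjusted p = 1.93e-06). The heart and skeletal muscle gene Cox6a2, known in mouse brain from parvalbumin interneurons, read 5.95, 5.10, 8.10 and 7.87 on N1 to N4 and 4.20 to 4.73 on the other 12 arrays. All 4 neuronal arrays were above the rest, with N3 and N4 far above N1 and N2, and N2 and the other 12 arrays lay below the array medians, where background limits the size of a difference. Its measured difference was 2.29 ± 0.39 (adjusted p = 0.000123), and it was 1.06 with N1 and N2 alone (adjusted p = 0.000221) and 3.52 with N3 and N4 alone (adjusted p = 1.58e-10).

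Cox7a1, the muscle form of subunit 7A, read 6.29, 6.18, 7.25 and 6.57 on N1 to N4 and 5.43 to 6.09 on the other arrays, again with no overlap (0.86 ± 0.16, adjusted p = 0.000345). Ndufa4 read 12.21, 12.15, 12.41 and 12.40 on the neuronal arrays and 11.13 to 11.60 on the others (0.92 ± 0.08, adjusted p = 5.36e-08). For both genes the neuronal arrays were separate from the rest. The Ndufa4 relative Ndufa4l2, which is induced by hypoxia, read 5.79, 5.71, 5.39 and 5.62 on the neuronal arrays, overlapping the 5.09 to 5.74 of the others (0.27 ± 0.10, adjusted p = 0.0375). Cox6b1, the broadly used form of subunit 6B, read 11.40 to 11.83 on the neuronal arrays, 10.97 to 11.02 on the astrocytic arrays, below all others, and 11.26 to 11.45 on the rest (0.40 ± 0.08 in neurons, adjusted p = 0.000414). The broadly used Cox4i1 (0.57 ± 0.07, adjusted p = 1.02e-05) and Cox8a (0.77 ± 0.08, adjusted p = 3.74e-07) were higher in neurons with no overlap of arrays. Their tissue-restricted counterparts Cox4i2, a lung isoform linked to oxygen sensing, and Cox8b, a muscle isoform in rodents, lay below the array median on every culture array, as did the testis form Cox7b2.

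**Figure D3:**
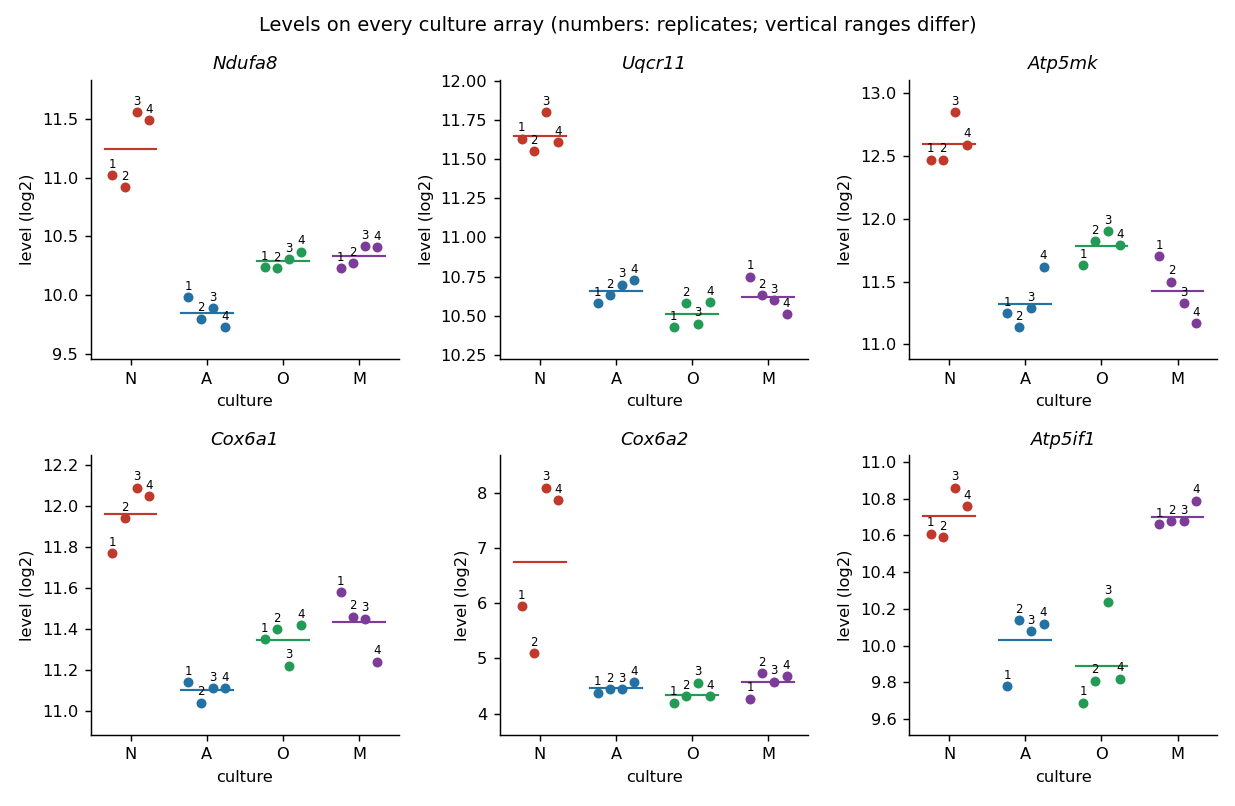
Log2 level of 6 genes on the 16 culture arrays (N, A, O and M as in the labels), with replicate numbers beside the points, lines at the culture means and vertical ranges that differ between panels. Neuronal arrays stand above all others for Ndufa8, Uqcr11, Atp5mk, Cox6a1 and Cox6a2, with N3 and N4 at 8.10 and 7.87 for Cox6a2, while Atp5if1 is as high on microglial as on neuronal arrays.

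Within the neuronal cultures, N3 and N4 were both above N1 and N2 for 74 of the 80 genes (92.5%), against 30.5% of all genes and 45.8% of the 1801 brighter genes. The median of the mean of N3 and N4 minus the mean of N1 and N2 was 0.43 for the 80 genes, 0.01 for all genes and 0.08 for the brighter genes. The shift was 2.46 for Cox6a2, 1.05 for Ndufb7 and 0.57 to 0.68 for the 4 complex II genes, and 0.12 for Uqcr11. Astrocyte markers were also higher on N3 and N4 (9.14 and 8.86) than on N1 and N2 (6.95 and 7.78), and the part of this difference in the result was not tested. The labels do not say what N3 and N4 share. With N1 and N2 alone, 28 of the 80 genes were higher in neurons, where 20.9% of all probe sets and 24.8% of the brighter genes were. With N3 and N4 alone 64 were, where 19.0% of all probe sets and 26.4% of the brighter genes were.

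Astrocytic cultures had the lowest mean level of complexes I, III, IV and V. Each culture also enters the mean that the others are set against, so these comparisons share arrays and are not independent. Against the mean of the other 3 cultures, 41 of the 80 genes were lower in astrocytes and 4 were higher, where 22.2% of all probe sets were lower and 18.9% higher, and 28.7% and 27.5% of the brighter genes were. The median difference was -0.28, against -0.04 for all probe sets. The lower genes were 16 of 34 in complex I, 3 of 7 in complex III, 9 of 15 in complex V and 10 of 10 broadly used complex IV subunits, against 0 of 4 in complex II. For 14 genes all 4 astrocytic arrays lay below the other 12 arrays, as they did for 3.99% of all probe sets, and for 22 genes all 4 neuronal arrays lay above the other 12 (12.1% of all probe sets).

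Besides Ndufa8, the largest negative differences among the called genes were those of Ndufb9, Cox7b, Cox5a and Ndufb2. Ndufb9, a membrane arm subunit of complex I, read 10.98, 10.90, 10.92 and 10.95 on A1 to A4, against 11.60 to 12.10 on the neuronal, 11.36 to 11.51 on the oligodendrocytic and 11.47 to 11.70 on the microglial arrays. The astrocytic arrays were close together and below the rest (-0.71 ± 0.09, adjusted p = 1.72e-05). Cox7b, a small complex IV subunit, read 10.77, 10.64, 10.83 and 11.02 on A1 to A4 and 11.16 to 12.14 on the other 12 arrays (-0.71 ± 0.11, adjusted p = 0.000114). Ndufb2, also of the membrane arm, read 10.09, 9.94, 10.04 and 10.18 on A1 to A4, against 10.46 to 11.10 on the others (-0.63 ± 0.07, adjusted p = 5.69e-06), so neither gene's arrays overlapped the rest. Cox5a, a nuclear-encoded complex IV subunit, read 6.72, 6.95, 6.69 and 7.56 on A1 to A4 and 6.94 to 8.27 on the others, which overlapped (-0.68 ± 0.19, adjusted p = 0.00786). A brighter probe set of Cox5a, which carries another symbol as well, was left out.

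Set against 1 culture at a time, 59 of the 80 genes were higher in neuronal than in astrocytic cultures and 3 were lower (21.6% and 22.7% of all probe sets), 39 were higher in neuronal than in oligodendrocytic cultures (19.7%, with 21.6% lower) and 45 higher in neuronal than in microglial cultures (23.1%, with 28.1% lower), with 0 of the 80 lower in both. At an unadjusted p under 0.05 by limma, 0 were lower than in oligodendrocytic and 1 lower than in microglial cultures. The shares of all probe sets at that unadjusted threshold are not given. The 3 genes lower in neurons than in astrocytes were Sdhc, Cox6b2 and Cox4i2. Without the neurons in the comparison, 24 genes were lower and 2 higher in astrocytic than in oligodendrocytic cultures, and 18 lower and 3 higher in astrocytic than in microglial cultures. Of all probe sets, 17.9% and 21.0% were lower and 16.4% and 17.4% higher in these pairs, and of the brighter genes 31.4% and 26.9% were lower and 18.1% and 25.5% higher. The 30.0% of the 80 genes lower than in oligodendrocytic and the 22.5% lower than in microglial cultures were thus near or below the shares of the brighter genes. Between oligodendrocytic and microglial cultures 3 genes were higher and 4 lower, where 13.5% and 13.4% of all probe sets were.

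The 4 genes called higher in astrocytic cultures were Sdhc and 3 restricted isoforms. Cox6b2, the testis form of subunit 6B, read 4.16, 5.16, 5.46 and 5.22 on A1 to A4, against 3.77 to 4.58 on the other 12 arrays, with A1 among them (0.75 ± 0.18, adjusted p = 0.00301). Cox4i2 (0.42 ± 0.12, adjusted p = 0.0113) and Cox8b (0.42 ± 0.16, adjusted p = 0.0477) had their highest value on A4, and without A4 they were at 0.29 (adjusted p = 0.0596) and 0.21 (adjusted p = 0.244). The Cox8b call was also lost without most other single arrays. These 3 genes were near or below the array medians, where array background limits what a difference shows.

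Complex II genes were not called higher over all 4 neuronal arrays, and for Sdha and Sdhc 3 of the 4 astrocytic arrays were the highest of all. Sdha, the flavoprotein that oxidises succinate, read 9.87, 9.81, 10.50 and 10.54 on N1 to N4 and 10.73, 10.67, 10.65 and 9.63 on A1 to A4, against 9.80 to 9.96 on the oligodendrocytic and 9.94 to 10.20 on the microglial arrays. A1 to A3 were the highest 3 of the 16 arrays and A4 the lowest. Sdhb, the iron-sulfur subunit, read 10.43, 10.67, 11.18 and 11.07 on N1 to N4 and 10.96, 10.98, 10.99 and 10.15 on A1 to A4, against 10.61 to 10.94 on the oligodendrocytic and 10.78 to 11.09 on the microglial arrays. Sdhc, a membrane anchor that binds ubiquinone and heme, read 10.19, 10.29, 10.86 and 10.78 on N1 to N4 and 11.28, 11.42, 11.32 and 10.61 on A1 to A4, against 10.79 to 10.91 on the oligodendrocytic and 10.15 to 10.50 on the microglial arrays. For Sdhc, A1 to A3 were thus above all other arrays. The other anchor, Sdhd, read 10.06, 10.10, 10.70 and 10.62 on N1 to N4 and 10.38, 10.23, 10.23 and 9.84 on A1 to A4, against 10.19 to 10.38 on the oligodendrocytic and 10.42 to 10.56 on the microglial arrays. In each of the 4 genes A4 was thus the lowest astrocytic array. On the same array the means of complexes I, III, IV and V were 9.99, 10.80, 10.88 and 11.06, against 9.94 to 10.03, 10.78 to 10.83, 10.75 to 10.78 and 11.01 to 11.11 on A1 to A3.

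**Figure D4:**
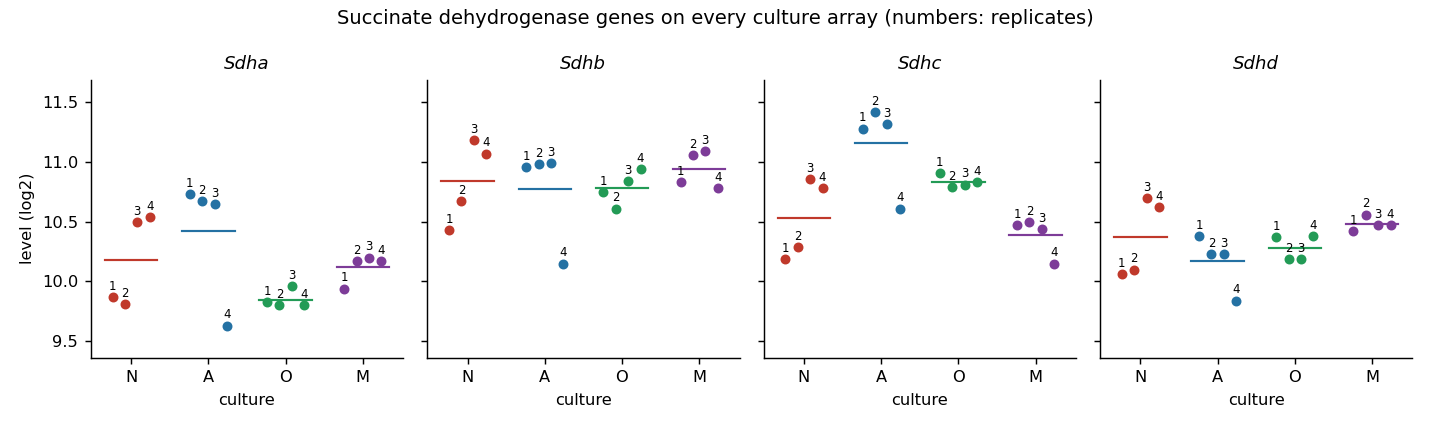
Log2 level of the 4 succinate dehydrogenase genes on the 16 culture arrays, on a shared vertical axis, with replicate numbers beside the points and lines at the culture means. A4 is the lowest astrocytic array in each panel, at 9.63 for Sdha where A1 to A3 are at 10.65 to 10.73, and N1 and N2 are below N3 and N4.

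Over all 4 astrocytic arrays Sdhc was higher (0.57 ± 0.15, adjusted p = 0.00491), while Sdha (0.37 ± 0.18, adjusted p = 0.119), Sdhb (-0.08 ± 0.16, adjusted p = 0.713) and Sdhd (-0.21 ± 0.12, adjusted p = 0.196) were not called. Without A4, Sdhc was at 0.75 (adjusted p = 0.000219) and Sdha passed the test at 0.64 (adjusted p = 0.0016). In neurons the 4 differences were 0.05 ± 0.18 (Sdha, adjusted p = 0.851), 0.01 ± 0.16 (Sdhb, adjusted p = 0.975), -0.27 ± 0.15 (Sdhc, adjusted p = 0.148) and 0.06 ± 0.12 (Sdhd, adjusted p = 0.711). With N3 and N4 as the only neuronal arrays, Sdhd passed the test as higher in neurons (0.35, adjusted p = 0.0305), while Sdha was at 0.39 (adjusted p = 0.181), Sdhb at 0.29 (adjusted p = 0.252) and Sdhc at 0.02 (adjusted p = 0.934). With N1 and N2 alone, Sdhc passed it as lower (-0.56, adjusted p = 0.0142), so the complex II result depends on which neuronal arrays are used. Without A4 the neuronal difference of Sdhc passed the test at -0.33 (adjusted p = 0.028). In microglia Sdhc was lower (-0.45 ± 0.15, adjusted p = 0.0204), and it was not called without M4 (-0.37, adjusted p = 0.0863). The complex II mean minus the mean of the other complexes was -0.69, -0.55, -0.44 and -0.43 on N1 to N4 and 0.36, 0.43, 0.35 and -0.39 on A1 to A4, against -0.24 ± 0.07 on the oligodendrocytic and -0.13 ± 0.11 on the microglial arrays (SD, n = 4 each). The size of this difference depends on the probes, and only its change between arrays can be read. A4, the array with the highest fibroblast markers, was the only astrocytic array below 0, and the part of those markers in the result was not tested.

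The mixtures held the same parent RNA on other arrays. Sdha read 10.47, 10.22 and 10.15 on replicate 1 of NA1, NA2 and NA3, which hold neuronal RNA at fractions of 0.25, 0.5 and 0.75 with A1 as the rest, and 9.74, 9.67 and 9.53 on replicate 2, with A4 as the rest. Sdhc read 11.03, 10.91 and 10.68 on replicate 1 and 10.67, 10.53 and 10.23 on replicate 2. Both genes were thus lower on replicate 2 at every proportion. Sdhb lay at 10.28 to 10.50 on replicate 2 against 10.68 to 10.73 on replicate 1, and Sdhd at 9.89 to 9.91 against 10.12 to 10.19. Over the 5 kinds of mixture the complex II mean was 9.99 to 10.25 on replicate 2 and 10.40 to 10.60 on replicate 1, without overlap. The mixtures share the RNA of their parents and are not replicates of the cultures. The lower level of replicate 2 was not particular to complex II. The means of complexes I, III, IV and V were also lower on replicate 2 in all 5 kinds of mixture, and the mean over the 70 subunits was lower there by a difference of -0.18 to -0.08, against -0.44 to -0.15 for complex II. The complex II mean minus the mean of the other complexes was -0.74 to -0.32 on replicate 2 and -0.39 to -0.04 on replicate 1, which overlapped.

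**Figure D5:**
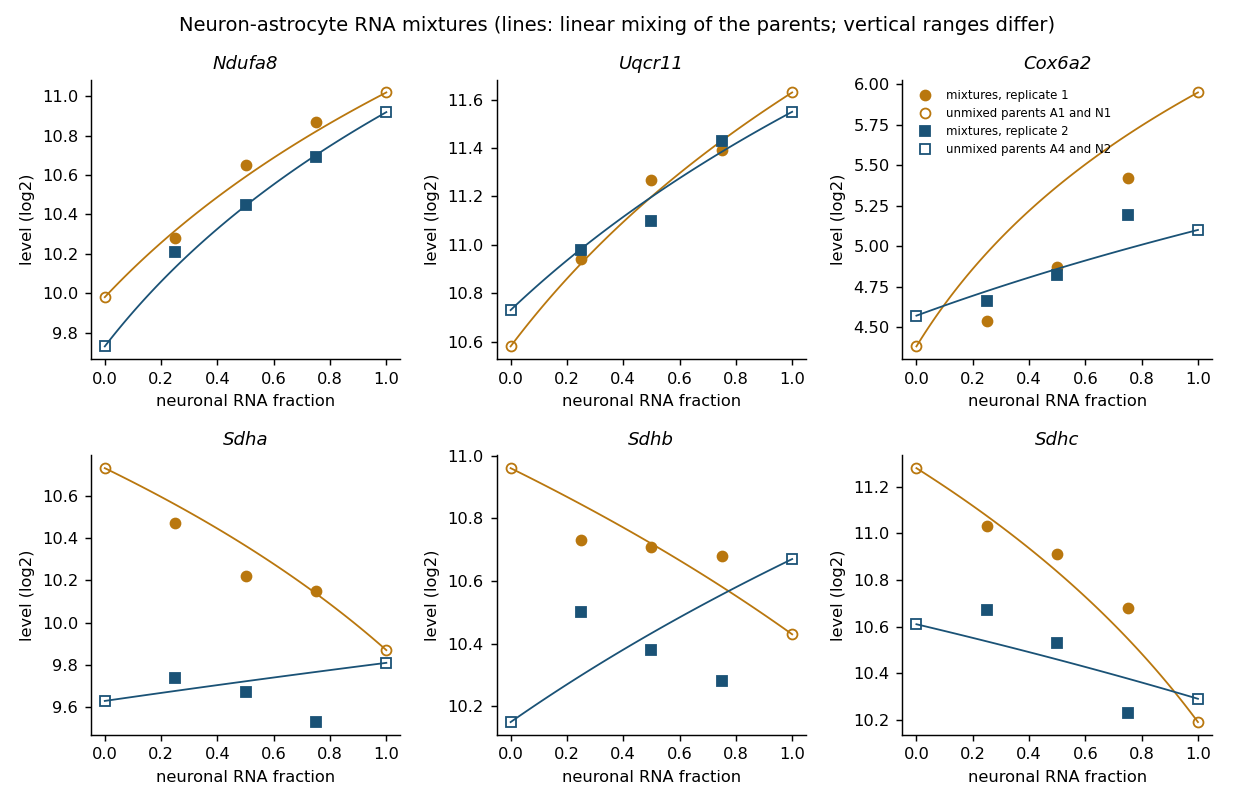
Log2 level against neuronal RNA fraction for 6 genes on the neuron-astrocyte mixture arrays (filled points), with the unmixed parents at 0 (A1 or A4) and 1 (N1 or N2) as open points, lines for linear mixing of the parents and vertical ranges that differ between panels. Ndufa8 and Uqcr11 are higher at higher neuronal fractions in both replicates, while the 3 complex II genes differ between replicates, with Sdha at 10.15 to 10.47 in replicate 1 and 9.53 to 9.74 in replicate 2.

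Across the 6 neuron-astrocyte mixtures, 69 of the 80 genes had a positive slope on the neuronal RNA fraction, where 52.2% of all probe sets and 44.6% of the brighter genes did, and 6 slopes were called by limma, all positive, where 9.32% of all probe sets were called positive and 5.01% negative. The count of 6 in 80 genes was thus not above the background. At an unadjusted p under 0.05 by limma there were 19 positive and 0 negative slopes. The share of all probe sets at that threshold is not given, so these counts have no background. The 6 were Cox6a2 (1.42 ± 0.25 log2 units per unit of fraction, SE, adjusted p = 0.0145), Ndufa8 (1.07 ± 0.24, adjusted p = 0.0307), Ndufv3 (0.97 ± 0.22, adjusted p = 0.0344), Atp5mk (0.89 ± 0.19, adjusted p = 0.0271), Uqcr11 (0.89 ± 0.20, adjusted p = 0.0343) and Ndufb2 (0.79 ± 0.20, adjusted p = 0.0454). With the replicate as a block, which the shared parents call for, 11 slopes were called positive and 1 negative, where 12.5% of all probe sets were called positive and 11.7% negative. The count of 11 was thus again near the background. The negative one was Sdhc (-0.79 ± 0.21, adjusted p = 0.0328), and the further positive ones were Atp5f1b, Cox5a, Cox5b, Ndufa4 and Ndufa4l2. Without any 1 of the 6 arrays between 0 and 2 genes were called, so the count rests on all 6. The observed level minus that expected from linear mixing of the stated parents had a median over the 80 genes between -0.04 and 0.06 on the 10 mixture arrays, against -0.16 to -0.07 over all genes.

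Oligodendrocytic and microglial cultures lay between neuronal and astrocytic cultures in the average over the 70 subunits. In oligodendrocytic cultures 2 of the 80 genes were higher and 7 lower, where 15.6% and 15.2% of all probe sets and 33.9% and 12.4% of the brighter genes were. Ndufv2, an iron-sulfur subunit of the NADH-binding module, read 10.77, 10.70, 10.79 and 10.95 on O1 to O4, against 9.76 to 10.38 on the astrocytic and microglial arrays and 10.47 to 10.99 on the neuronal arrays, with which it overlapped (0.49 ± 0.12, adjusted p = 0.00416). Ndufb11, the other higher gene, was at 0.31 ± 0.10 (adjusted p = 0.0272), and its call was lost without O3 (0.25, adjusted p = 0.107) and without O4 (0.32, adjusted p = 0.0567). The supercomplex assembly gene Cox7a2l read 10.81, 10.87, 10.82 and 10.78 on O1 to O4, against 10.88 to 11.41 on the other 12 arrays (-0.35 ± 0.09, adjusted p = 0.00468). Ndufa6, a complex I subunit, read 9.73, 9.80, 9.72 and 9.79 on O1 to O4, against 9.85 to 10.48 on the others (-0.31 ± 0.08, adjusted p = 0.0067). For these 2 genes all oligodendrocytic arrays were below the rest, as for 1.06% of all probe sets. The count of higher genes was 1 without O4, 5 without A4 and 6 without N3, with no shares of all probe sets given for these fits. Uqcr11 (-0.46 ± 0.07, adjusted p = 0.000105) and Ndufc1 (-0.30 ± 0.08, adjusted p = 0.00821) were also lower, with the inhibitor Atp5if1 described above, Ndufa1 and Cox4i1.

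In microglial cultures 4 of the 80 genes were higher and 16 lower, where 24.0% and 21.2% of all probe sets and 30.0% and 30.5% of the brighter genes were. The share of the 80 genes that was lower was thus near the background. Apart from Atp5if1, the higher genes were Ndufa13, Ndufa1 and the ATP synthase epsilon subunit gene Atp5f1e. Ndufa13 read 10.66, 10.85, 10.90 and 10.94 on M1 to M4, above the astrocytic and oligodendrocytic arrays (10.30 to 10.47) and within the neuronal range of 10.21 to 11.04 (0.39 ± 0.12, adjusted p = 0.0154, and 0.36 without M4, adjusted p = 0.054). Atp5f1e (0.25 ± 0.09, adjusted p = 0.0372) and Ndufa1 (0.21 ± 0.08, adjusted p = 0.0382) were close to the threshold and lost their calls without any 1 of M1 to M4. Both calls were also lost without several single arrays of the other cultures, among them N1, A1, A3 and O4, and with quantile normalization of the cultures alone. The lower genes included Cox6b2 (-0.50 ± 0.18, adjusted p = 0.0339, lost without A2, M3 or M4), Atp5mk (-0.48 ± 0.11, adjusted p = 0.00207), Uqcrc2 (-0.41 ± 0.11, adjusted p = 0.00731), Uqcrq (-0.36 ± 0.12, adjusted p = 0.0208, lost without M3 or M4) and Sdhc. With its other probe set Uqcrc2 was at -0.53 and was not called (limma adjusted p = 0.121). The count of lower genes was 8 without M3 and 5 without M4, and that of higher genes was 1 without M4 and 2 without any 1 of N1, A1, A3, O4 and M1 to M3. Shares of all probe sets in these fits are not given.

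Genes that work beside the respiratory chain were taken from lists. For comparison, the same test called 22.5% of all probe sets higher and 26.4% lower in neurons. The shares were 18.9% and 22.2% in astrocytic, 15.6% and 15.2% in oligodendrocytic and 24.0% and 21.2% in microglial cultures. Of 14 measured genes of the citric acid cycle and pyruvate dehydrogenase (17 listed), 12 were higher and 1 lower in neurons, with a median difference of 0.61, and 0 were higher and 8 lower in microglia (median -0.32). In astrocytic cultures 2 were higher and 3 lower, and in oligodendrocytic cultures 1 and 2. Cs, citrate synthase, read 11.31, 11.18, 11.45 and 11.46 on N1 to N4 and 10.16 to 10.56 on the other 12 arrays (1.01 ± 0.07, adjusted p = 3.71e-09). Pdha1, a pyruvate dehydrogenase subunit, was higher in neurons (1.41 ± 0.11, adjusted p = 3.04e-08) and lower in microglia (-1.46 ± 0.11, adjusted p = 6.37e-08). The gene that was lower in neurons was Suclg2, the GTP-forming succinyl-CoA synthetase subunit, which makes the succinate that complex II oxidises. It read 4.90, 6.23, 7.38 and 7.24 on N1 to N4 and 10.26, 10.13, 10.19 and 9.14 on A1 to A4, against 8.58 to 9.18 on the oligodendrocytic and microglial arrays. No neuronal array reached the others, and A4 was the lowest astrocytic array, as for the complex II genes (neuronal difference -2.79 ± 0.34, adjusted p = 3.77e-06, and astrocytic difference 1.87 ± 0.34, adjusted p = 0.000338). Its ATP-forming counterpart Sucla2 was higher in neurons (0.93 ± 0.12, adjusted p = 6.88e-06).

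Of 41 measured assembly factors (46 listed), 11 were higher and 7 lower in neurons (median 0.14), and 7 were higher and 12 lower in astrocytic cultures (median -0.05). In oligodendrocytic cultures 8 were higher and 6 lower, and in microglia 8 and 13. The neuronal shares were thus close to those of all probe sets or below them. The largest neuronal differences were those of Ttc19, a complex III factor (2.22 ± 0.15, adjusted p = 7.06e-09), and Cox16, a complex IV factor (-1.47 ± 0.09, adjusted p = 1.69e-09). The complex II factors went different ways. Sdhaf2, which helps attach flavin to Sdha, read 8.99, 9.18, 9.15 and 8.93 on A1 to A4, above the 7.51 to 8.30 of the other 12 arrays (1.04 ± 0.09, adjusted p = 2.34e-07). Sdhaf1, which helps mature the iron-sulfur subunit, was lower in astrocytic (-0.79 ± 0.12, adjusted p = 7.74e-05) and higher in oligodendrocytic cultures (0.64 ± 0.12, adjusted p = 0.000734), and Sdhaf3 was higher in neurons (0.87 ± 0.08, adjusted p = 3.41e-07). Uqcc2, a complex III factor, had the largest oligodendrocytic difference of the list (1.16 ± 0.16, adjusted p = 5.31e-05).

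Of 17 regulators of mitochondrial biogenesis and mitochondrial DNA, 3 were higher and 9 lower in neurons (median -0.38), and 8 were higher and 1 lower in microglia (median 0.28). In astrocytic cultures 3 were higher and 5 lower, and in oligodendrocytic cultures 5 and 2. Ppargc1a, the coactivator PGC-1 alpha, read 7.35, 7.02, 8.76 and 8.80 on N1 to N4 and 4.67 to 6.04 on the other 12 arrays (2.68 ± 0.29, adjusted p = 1.2e-06). All neuronal arrays were above the rest, and N3 and N4 were again above N1 and N2. The factors whose motifs were searched in the promoters were lower in neurons: Gabpa by a difference of -1.47 ± 0.10 (adjusted p = 4.13e-09), Nrf1 by -0.92 ± 0.13 (adjusted p = 1.38e-05) and Yy1 by -0.89 ± 0.13 (adjusted p = 3.31e-05). Tfam, which packages and transcribes mitochondrial DNA, was also lower (-0.60 ± 0.13, adjusted p = 0.000892). RNA levels of a factor do not give its activity.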

How the data were processed

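RNA from 16 primary cultures and 10 RNA mixtures was measured on 26 Affymetrix rat arrays. The authors deposited 1 log2 value per probe set and array, made with RMA in the affy package per the submitters' processing notes, where RMA corrects background, quantile-normalises and summarises probes. Package versions are not given in the sources used here. RMA makes array distributions alike and compresses differences of dim probe sets. The deposited table held 31099 probe sets and 0 columns of other series. After 57 control probe sets were left out, 31042 were tested, of which 20826 had 1 gene symbol, 436 had several and 9780 had none in the platform annotation.

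Differences were tested with limma 3.58.1 in R 4.3.3 (lmFit, contrasts and eBayes over all 16 culture arrays, or all 6 neuron-astrocyte mixtures for the slope), with Benjamini-Hochberg adjustment over all 31042 probe sets and a threshold of 0.05. The number of arrays limits the precision. Tables and figures used Python 3.11.15 with pandas 2.3.3, numpy 2.4.6 and matplotlib 3.10.9. A gene with several probe sets was given by the one with the highest mean, which applied to 8 of the 80 genes. A further 7 probe sets that carried a respiratory chain symbol together with another were left out, among them a brighter one for Cox5a. The fit was tested on simulated data.

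The 80 genes, the gene lists and the tests were chosen with earlier results of these data known. Named genes were, in each culture, the 5 with the largest called difference in each direction, the isoform families and the complex II genes, and for the lists those with the largest called differences; other genes named were chosen after their values were seen. Linear mixing was computed on unlogged values of the stated parents. Replicate numbers did not pair the cultures (correlations of deviations -0.107 to 0.178 over 24 pairs). They paired the mixtures through shared parents, as the labels state (0.381 to 0.873 over 20 pairs). With 2 replicates per mixture the deviations mirror each other. Each correlation thus occurs once per replicate with the same value, and the 20 pairs are not separate. Other settings tried were centring each array on its median, quantile normalization within the cultures or mixtures alone, the replicate number as a block, a filter on the dimmest 25% of probe sets, a minimum difference of 1, other probe set choices, array weights, another variance model, and leaving out doubted arrays or each array in turn.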

Additional observations from a re-analysis of the deposited data

Results flagged for a closer look

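The 34 genes picked by largest called difference, isoform family or complex II were examined for single arrays that stood apart. In 8 of 136 groups of 4 arrays, 1 array was far from the other 3 by Dixon's test. Chance gives about 1 in 20 groups, so the number of flags was near that rate. On A4, Sdha was at 9.63 where the other astrocytic arrays lay between 10.65 and 10.73. Sdhb on A4 was at 10.15, where they lay between 10.96 and 10.99, and Cox4i1 on A4 was at 12.03, where they lay between 12.26 and 12.28. A1 stood apart for Atp5if1 (9.78, others 10.08 to 10.14) and for Ndufa6 (9.85, others 9.97 to 9.98). Among microglial arrays, M1 was low for Sdha (9.94, others 10.17 to 10.20) and M4 was high for Atp5if1 (10.79, others 10.66 to 10.68). Ndufa4 was low on O2 (11.50, others 11.59 to 11.60). Apart from Sdha and Sdhb on A4, these gaps were small on the log2 scale, in groups whose other arrays lay close together.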

How the results depend on the processing

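Of the 80 genes, 27 were higher in neurons and 34 lower in astrocytes in each of 26 fits that kept 1 probe set per gene. The share of all probe sets called in every fit is not given here, so these counts have no background to be set against. With the other probe sets of these genes, 3 (Atp5if1, Atp5me and Ndufv3) were not called the same way, which leaves 24 and 31. In neurons those of Atp5if1 were at 0.09 and 0.10, and those of Atp5me and Ndufv3 at 0.05 and -1.08. The counts of 57 higher and 0 lower in neurons, 4 and 41 in astrocytic, 2 and 7 in oligodendrocytic and 4 and 16 in microglial cultures moved as follows. For most of these settings the share of all probe sets called is not given. The moved counts thus cannot be read as particular to the 80 genes. With a minimum difference of 1, 4 stayed higher in neurons, 0 were called in the other cultures and 2 slopes were called. With neurons 1 and 2 only, 28 were higher and 5 lower in neurons, and 7, 8 and 11 were higher in astrocytic, oligodendrocytic and microglial cultures. With neurons 3 and 4 only, 18 were lower in oligodendrocytic cultures, and 2 were higher and 30 lower in microglia. Without A4 and M4, 3 were lower in neurons (Cox4i2, Ndufs7 and Sdhc), 4 were higher in oligodendrocytic cultures, and 2 were higher and 6 lower in microglia. Quantile normalization gave 2 higher in microglia, array weights 1 lower in neurons and 5 higher in oligodendrocytic cultures, the trended and robust variance 4 higher in oligodendrocytic cultures, and the lowest-mean or suffix-free probe sets 1 lower in neurons. Leaving out each array in turn gave 46 to 59 higher and 0 to 2 lower in neurons, 3 to 4 and 36 to 47 in astrocytic, 1 to 6 and 5 to 10 in oligodendrocytic and 1 to 6 and 5 to 22 in microglial cultures, and 0 to 2 positive and 0 negative slopes. The replicate block moved the slopes to 11 positive and 1 negative, and in the cultures, which it does not pair, it gave 55 higher in neurons and 41 lower in astrocytes. The near-zero complex II differences changed sign. In neurons Sdha was at -0.03 without A4 and M4 and at -0.29 with neurons 1 and 2 only, Sdhb at -0.03 with quantile normalization, -0.08 without A4 and M4 and -0.28 with neurons 1 and 2 only, Sdhc at 0.02 with neurons 3 and 4 only, where Sdhd passed the test at 0.35, and Sdhd at -0.23 with neurons 1 and 2 only and -0.05 with its other probe set. In astrocytes Sdhb was at 0.05 with array weights, 0.11 without A4 and M4 and 0.01 with neurons 1 and 2 only. Leaving out 1 array gave -0.07 to 0.17 (Sdha), -0.11 to 0.14 (Sdhb) and -0.05 to 0.17 (Sdhd) in neurons, and -0.16 to 0.12 (Sdhb) in astrocytes. The cause of these shifts was not tested. Dim probe sets (Cox4i2, Cox7b2, Cox8b, Cox6b2, and Cox6a2 outside N1, N3 and N4) are limited by background.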

Other observations

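Enzymes that feed electrons to ubiquinone beside complexes I and II, and uncoupling carriers, included larger differences between cultures than the respiratory chain genes. Of the 10 genes listed, 3 were higher and 5 lower in neurons, and 4 were higher and 2 lower in astrocytic cultures. In oligodendrocytic cultures 0 were higher and 2 lower, and in microglia 4 and 3. Sqor, which oxidises hydrogen sulfide and passes the electrons to ubiquinone, read 10.98, 11.30, 11.27 and 10.74 on A1 to A4, against 5.42 to 5.58 on the neuronal, 6.40 to 7.94 on the oligodendrocytic and 6.35 to 7.68 on the microglial arrays (4.47 ± 0.26, SE, limma adjusted p = 4.08e-09). Etfa, Etfb and Etfdh, which carry electrons from fatty acid oxidation to ubiquinone, were higher in astrocytic cultures by 1.24 ± 0.22, 0.71 ± 0.18 and 0.66 ± 0.22 (adjusted p = 0.000258, 0.00441 and 0.0233). Ucp2 read 9.83, 9.37, 10.04 and 9.94 on M1 to M4, above the 5.31 to 9.17 of the other 12 arrays (2.35 ± 0.27, adjusted p = 4.46e-06), and its lowest values were on the neuronal arrays (5.31 to 5.74). The neuronal uncoupling-protein relatives Slc25a27 and Slc25a14 were lower in microglia (-1.33 ± 0.10, adjusted p = 8.04e-08, and -1.52 ± 0.12, adjusted p = 1.19e-07).

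Of 18 measured genes of mitochondrial carriers, pores, import, chaperones and cytochrome c (21 listed), 7 were higher and 2 lower in neurons (median 0.09). In astrocytic cultures 1 was higher and 5 lower, in oligodendrocytic cultures 4 and 2, and in microglia 1 and 6. The import receptor Tomm70 was higher by 2.07 ± 0.14 (adjusted p = 6.24e-09) and the outer membrane channel Vdac1 by 0.77 ± 0.09 (adjusted p = 2.96e-06). The adenine nucleotide carriers differed in pattern: Slc25a4 was higher in neurons (0.77 ± 0.10, adjusted p = 5.8e-06) and lower in microglia (-0.86 ± 0.10, adjusted p = 3.38e-06), while Slc25a5 was higher in microglia (0.65 ± 0.15, adjusted p = 0.00208) and lower in astrocytic cultures (-0.85 ± 0.15, adjusted p = 0.000218).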
